A study of Mus musculus with 3 samples.

Results

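The transcripts of the mitochondrial genome are 37 of the 16178 genes in the deposited expression table. They were chosen by name, as every row that starts with mt- or with mt and a capital letter. They comprise 13 protein-coding genes, 2 ribosomal RNA (rRNA) genes and 22 transfer RNA (tRNA) genes, and all 37 were matched to mouse gene models of GENCODE M21. The table writes the coding genes without a hyphen (mtCo1), and the standard symbols (mt-Co1) are used here.

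The mitochondrial genome is a small circle present in many copies per cell. It encodes core subunits of the respiratory chain and ATP synthase together with the rRNAs and tRNAs that translate them inside the organelle. Both strands are transcribed as long precursors that are cut into single RNAs, often at tRNAs lying between the other genes. The rRNAs and most of the mRNAs then receive poly(A) tails, which for some mRNAs also complete the stop codon. Because these RNAs lie behind the membranes of the organelle, their share of a cell's transcripts is also in common use as a quality measure in single-cell work.

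The cells came from the subventricular zone, a stem cell niche of the adult mouse brain, of male C57BL/6J mice, for which the labels name no other genotype or treatment. Each of the 3 experiments took 8 mice, per the labels' protocols, so animals were pooled. Their tissue was minced, dissociated with trypsin and selected on a magnetic column for GLAST, a glutamate transporter of astrocytes and neural stem cells, and myelin was removed in 2 of the 3 experiments, which are not named. Cells were sequenced with SORT-seq, in which single cells are sorted into wells and transcripts are captured by their poly(A) stretch and counted with molecular identifiers. The 3 samples, SVZ_1 to SVZ_3, are called plates 1 to 3 and form 1 group.

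The filtered table kept 43, 45 and 61 cells on plates 1 to 3, with a median of 4370, 7720 and 7205 transcripts per cell, and the unfiltered table holds a further 20, 34 and 32 wells. The labels call the cells neural stem cells, whereas the deposited clusters held several types by their markers. All 8 microglial markers were highest in cluster 1, and the 8 oligodendrocyte-lineage markers were highest in cluster 0 (3 of them) or cluster 2 (5). All 10 markers shared by quiescent stem cells and astrocytes were highest in cluster 3, and all 8 of activated progenitors in cluster 4, which also led in 4 of 7 neuroblast markers. Of the 96 well names, 85 occurred on more than 1 plate, as well names recur on every plate, and no doublet caller was run.

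Sequences are shown for the members whose ends or overlaps bear on how they were counted. All were read from GENCODE M21 transcripts (GRCm38, the mm10 build that the submitters' processing notes name), written 5′ to 3′. In the last 30 bases of the coding genes below, capitals mark the stop codon or the part of it that the gene encodes. Mt-Co1 (chrM:5328-6872, plus strand) encodes a whole stop codon, and mt-Cytb (chrM:14145-15288), mt-Nd4 (chrM:10167-11544) and mt-Co3 (chrM:8607-9390), all on the plus strand, end on a single T.
mt-Co1: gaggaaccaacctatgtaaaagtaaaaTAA
mt-Cytb: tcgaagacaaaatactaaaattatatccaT
mt-Nd4: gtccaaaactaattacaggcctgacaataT
mt-Co3: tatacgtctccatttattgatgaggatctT

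The ends of mt-Nd5 (chrM:11742-13565, plus strand) and mt-Nd6 (chrM:13552-14070, minus strand) overlap on opposite strands by 14 bases. They are shown because mt-Nd6 is the one coding member on the minus strand, with the stop codons in capitals.
mt-Nd5: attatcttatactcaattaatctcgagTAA
mt-Nd6: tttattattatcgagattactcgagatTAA

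Of the tRNAs, mt-Tm (chrM:3845-3913) and mt-Ti (chrM:3706-3774), both on the plus strand, had the most transcripts. Mt-Tr (chrM:9808-9875) and mt-Tl2 (chrM:11671-11741), also on the plus strand, are set beside them because they hold long runs of A and had no transcript in the kept cells. Capitals mark runs of at least 4 A.
mt-Tm: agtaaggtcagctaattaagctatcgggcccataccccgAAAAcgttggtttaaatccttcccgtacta
mt-Ti: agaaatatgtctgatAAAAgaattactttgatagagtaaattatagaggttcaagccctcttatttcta
mt-Tr: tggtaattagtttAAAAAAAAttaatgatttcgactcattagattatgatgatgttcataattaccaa
mt-Tl2: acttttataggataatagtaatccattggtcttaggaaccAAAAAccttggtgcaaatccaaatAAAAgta

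The mitochondrial genome supplied a substantial part of the RNA counted in the kept cells, and its share was close to the same on every plate. The 37 members made up 12.7, 12.5 and 12.1% of all transcripts on plates 1, 2 and 3, with exact 95% binomial intervals of 12.6 to 12.8%, 12.4 to 12.6% and 12.04 to 12.22%, a mean of 12.5 ± 0.303% (SD, n = 3). Intervals of this kind cover counting error only. The coding genes made up 80.5% of the 147731 mitochondrial transcripts.

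By class, the coding genes gave 10.4, 10.1 and 9.68% of all transcripts on plates 1 to 3, the rRNAs 2.29, 2.47 and 2.44%, and the tRNAs 0.0104, 0.0133 and 0.0130%. Plate 1 was thus the highest for coding RNA and the lowest for both other classes, with differences between plates that were small beside those between clusters. Cells varied far more than plates: single cells ranged from 3.34 to 28.0% on plate 1, from 4.36 to 43.2% on plate 2 and from 2.97 to 26.9% on plate 3.

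The authors' deposited percent of mitochondrial transcripts did not cover the coding genes. In 149 of 149 cells it equalled, within 1e-06, the share of the 24 rRNA and tRNA genes. Its median over cells was 2.23%, against 11.5% for all 37 members. The deposited percent exceeded 5% in 6 cells, whereas the share of all members exceeded 5% in 142 cells, 10% in 102 and 20% in 13. The cell with the highest share, in cluster 2 on plate 2, had 43.2% by all members and 7.33% by the deposited measure.

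Levels of different genes are compared per length, as CPM (counts scaled to a common total of transcripts) per kilobase of the gene. Molecular identifiers count captured molecules, and that number need not grow with gene length, so dividing by length can set short genes too high. By CPM alone mt-Rnr2 was the highest member, at 19164 against 18694 for mt-Atp6 over all kept cells. Mt-Rnr2 and mt-Rnr1 are the RNAs of the large and the small subunit of the organelle's ribosome. Mt-Rnr2 had 17768, 20153 and 19177 CPM on plates 1 to 3 and mt-Rnr1 had 5101, 4502 and 5198 CPM. Over all kept cells, mt-Rnr2 stood at 12114 CPM per kilobase and mt-Rnr1 at 5164. The large-subunit rRNA was thus 2.35-fold higher per length, and 3.89-fold higher by CPM.

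The highest member per length was mt-Atp6, which encodes a membrane subunit of ATP synthase, at 27452 CPM per kilobase. It had 18458, 18541 and 18974 CPM on plates 1 to 3, values that differed little. Its partner mt-Atp8, another ATP synthase subunit, stood at 5759 CPM per kilobase. The 2 genes overlap by 43 bases and share 1 mRNA, so reads from the overlap and the split between them depend on the counting, whose settings none of the sources used here gives.

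Of the mitochondrially encoded subunits of complex IV, cytochrome c oxidase, mt-Co2 was next in order per length, at 15506 CPM per kilobase. Mt-Cytb, mt-Rnr2 and mt-Nd4 came before mt-Co1 at 9002 and mt-Co3 at 7058. Mt-Cytb, the one mitochondrially encoded subunit of complex III, stood at 12488 CPM per kilobase.

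The mitochondrially encoded subunits of complex I, the NADH dehydrogenase, spanned 63.2 to 9270 CPM per kilobase. Mt-Nd4, mt-Nd2, mt-Nd1 and mt-Nd3 lay between 9270 and 6514 CPM per kilobase, mt-Nd4l at 4002 and mt-Nd5 at 2161. Mt-Nd4l overlaps mt-Nd4 by 7 bases on the same strand, so the split between them also depends on the counting. Mt-Nd6 stood at 63.2, with 11, 19 and 9 transcripts on plates 1 to 3 and at least 1 transcript in 24 of 149 cells. Mt-Nd5 was counted 120 times as often as mt-Nd6 (3941 against 32.8 CPM), though their genes end on each other. Mt-Nd6 mRNA is known to lack the poly(A) tail of the other mitochondrial mRNAs, and whether that bears on its count was not tested. Mt-Nd5 also varied between plates, at 5112, 4051 and 3118 CPM on plates 1, 2 and 3.

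**Figure D1:**
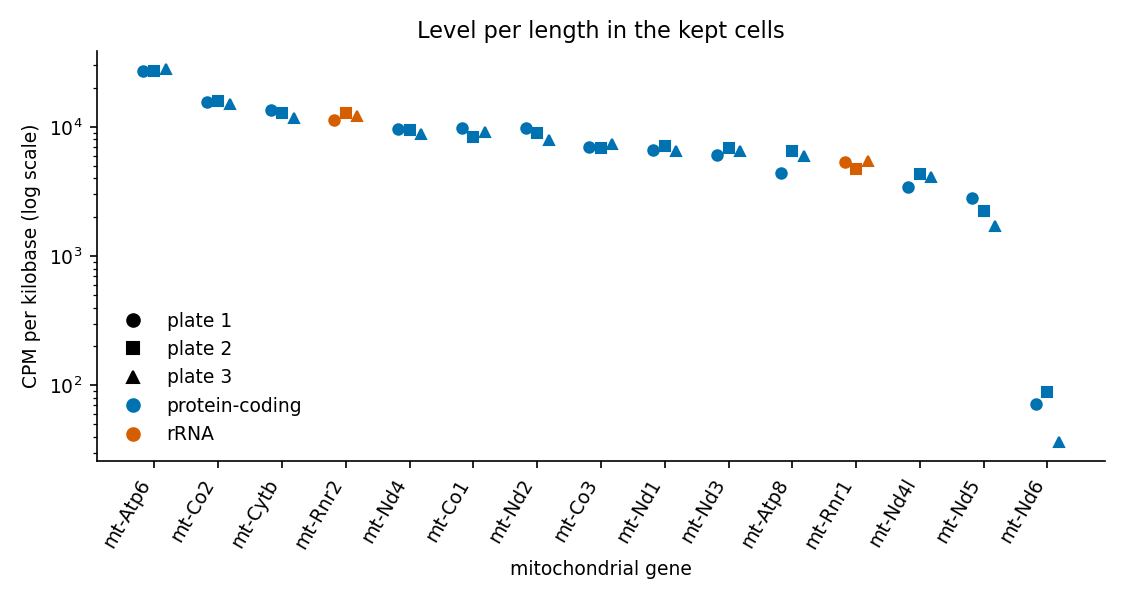
Level of each mitochondrial coding gene (blue) and rRNA (orange) in the kept cells, in CPM per kilobase of gene on a log scale, with 1 symbol per plate. Mt-Atp6 leads at 27452 over all plates, most members lie between 2161 and 15506, and mt-Nd6 stands apart at 63.2.

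The tRNAs were nearly absent from the counts. Together they had 148 transcripts in the kept cells, with at least 1 transcript for 17 of the 22. The methionine tRNA mt-Tm had 42 transcripts in 31 cells and the isoleucine tRNA mt-Ti had 33 in 22 cells. The tRNAs for tryptophan (mt-Tw) and for leucine (mt-Tl1) had 9 each, and mt-Ts1 and mt-Te had 8 each. Of the sequences printed above, mt-Tr holds a run of 8 A and had 0 transcripts in kept cells and 1 in the wells left out, while mt-Tm and mt-Ti, with the highest counts, hold no run longer than 4 A. Other tRNAs with long runs did have transcripts in kept cells: mt-Th, with a run of 6 A, had 5, and mt-Ts2, with a run of 5 A, had 1. These genes were singled out after their values were seen, and nothing is drawn from the runs about the source of the counts. Mt-Ty, mt-Tl2 and mt-Tp had 0 of 1218507 transcripts in all wells, which allows a level of up to 2.46 CPM.

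The leading tRNAs lie beside coding genes, as do tRNAs with no transcript. Mt-Tm ends where mt-Nd2 (chrM:3914-4951) begins, with no base between them, and mt-Ti shares 2 bases with the end of mt-Nd1 (chrM:2751-3707). Mt-Tl2, at 0 in all wells, likewise ends on the base before mt-Nd5 begins. Whether their counts are mature tRNA or pieces of longer RNA cannot be told apart in a count per gene.

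The 9 minus-strand members, mt-Nd6 and 8 tRNAs, had 68 transcripts in sum, or 0.0460% of all mitochondrial transcripts. Of the 68, 39 were from mt-Nd6. The 14 plus-strand tRNAs had 119 transcripts, most of them from mt-Tm and mt-Ti, and the 8 minus-strand tRNAs 29, while plus-strand mt-Tr, mt-Tl2 and mt-Tf had 0. None of the sources used here gives the strand setting of the counting, so for the minus-strand genes, reads of the opposite strand cannot be told apart. Nuclear copies are a further limit of the counting. For 9 members, a nuclear transcript in the annotation matched at least 50% of the length with at least 95% identity, and 0 of those transcripts are rows of the table.

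The deposited clusters differed in mitochondrial share, with the microglia-like cluster 1 the lowest. These levels are a description with no test, because the authors drew the clusters from the same values, and they are given where a plate had at least 3 cells of a cluster. In cluster 1, coding RNA was 6.44, 7.15 and 6.64% of transcripts on plates 1 to 3 (9, 18 and 9 cells). In the oligodendrocyte-lineage-like cluster 2 it was 13.7, 11.4 and 10.6% (3, 10 and 22 cells), and in cluster 0 it was 10.4 and 8.72% on plates 2 and 3 (15 and 26 cells). The ranges of clusters 1 and 2 did not overlap, whereas cluster 2 overlapped with cluster 3.

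Cluster 3, like quiescent stem cells or astrocytes, had 11.1% on plate 1 (25 cells) and 14.9% on plate 3 (4 cells). Cluster 4, like activated progenitors, had 9.95% on plate 1 (5 cells), with no other plate to give a spread. As means over plates, coding RNA ran from 6.74 ± 0.366% in cluster 1 (SD, n = 3) through 9.54 ± 1.17% in cluster 0 (n = 2) and 11.9 ± 1.62% in cluster 2 (n = 3) to 12.98 ± 2.69% in cluster 3 (n = 2). In this order, cluster 1 lay below each of the others by more than their spread, while clusters 2 and 3 did not differ beyond it.

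The rRNAs followed a similar order. Cluster 1 had 1.92, 1.97 and 1.47% of its transcripts in mitochondrial rRNA on plates 1 to 3, cluster 2 had 2.67, 2.94 and 2.72%, cluster 0 had 2.32 and 2.22% on plates 2 and 3, and cluster 3 had 2.61 and 3.29% on plates 1 and 3. Between the means of clusters 1 and 2, the makeup of the mitochondrial RNA differed less than its amount, which was 8.54 and 14.7% of transcripts. As part of it, rRNA was 20.9 ± 2.52% in cluster 1 and 19.1 ± 2.42% in cluster 2 (SD, n = 3 each). By plate, that part was 23.0, 21.6 and 18.1% in cluster 1 and 16.3, 20.5 and 20.4% in cluster 2. The order of the clusters thus changed on plate 3. Cells of cluster 1 were also shallower, with a median of 3497, 3673 and 2469 transcripts on plates 1 to 3 against 5284, 9461 and 7891 in cluster 2, and the part of depth in the shares was not tested.

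**Figure D2:**
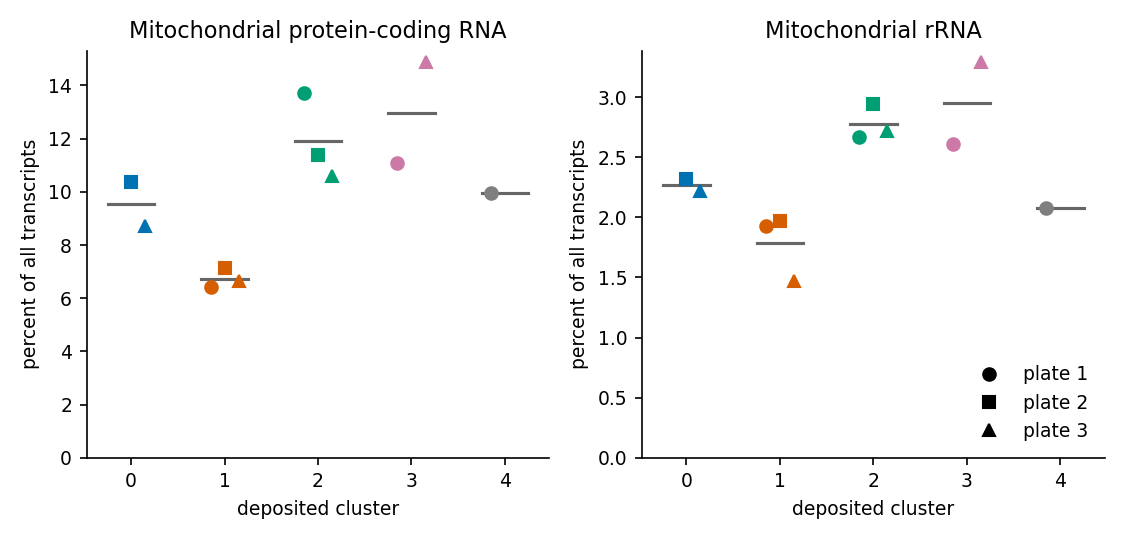
Share of all transcripts that came from mitochondrial coding genes (left) and rRNAs (right) in each deposited cluster, in percent, with 1 symbol per plate of at least 3 cells and a line at the mean over plates. Cluster 1 is lowest for coding RNA on every plate, between 6.44 and 7.15%.

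Gene by gene, the low level of cluster 1 held for most members but not in equal measure. Of the 15 coding and rRNA members, 12 were lower in cluster 1 than in each other cluster of at least 3 cells on 3 of 3 plates. The exceptions were mt-Nd4l, mt-Nd5 and mt-Nd6. How many of all genes were lowest in cluster 1 in this way is not given here, so the count does not set the members apart. In the sentences that follow, a ratio is the CPM of cluster 1 divided by that of all other kept cells of the same plate.

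Among the subunits of complexes V and IV, the ratio for mt-Atp6 was 0.545, 0.536 and 0.540 on plates 1 to 3, the least variable of all members, from 10542, 10826 and 10480 CPM in cluster 1. For mt-Co2 it was 0.555, 0.564 and 0.575, and for mt-Co3 it was 0.574, 0.588 and 0.624. These 3 ratios were alike on the 3 plates, although the plates held different mixtures of other cells. Mt-Co1 was more variable, at 0.384, 0.695 and 0.520. Mt-Atp8 had the lowest mean ratio, 0.371 ± 0.0926 (SD, n = 3), on 12, 46 and 8 transcripts in cluster 1.

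Of complex III, mt-Cytb had ratios of 0.743, 0.665 and 0.672. Of complex I, mt-Nd1 had a mean ratio of 0.753 ± 0.0827, mt-Nd2 of 0.786 ± 0.127, mt-Nd3 of 0.749 ± 0.113 and mt-Nd4 of 0.711 ± 0.147 (SD, n = 3 each). Mt-Nd5 had 0.770, 0.902 and 1.39, so it was below the other cells on 2 plates and above them on plate 3. Mt-Nd6 was above them on 3 of 3 plates, with ratios of 2.00, 1.23 and 2.38, but these rest on 2, 4 and 1 transcripts in cluster 1.

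Mt-Rnr2 had ratios of 0.858, 0.799 and 0.634, and mt-Rnr1 of 0.721, 0.623 and 0.431. For both, plate 3 was the lowest. Their mean ratios, 0.763 for mt-Rnr2 and 0.592 for mt-Rnr1, fell among those of the coding genes, the one above mt-Cytb (0.694) and the other just below mt-Co3 (0.595). Differences in ratio between complexes were not tested. Over all 15 members the median of the mean ratios was 0.711.

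Within a plate, cells with much mitochondrial coding RNA also had much mitochondrial rRNA. Spearman's rho over cells was 0.627 on plate 1 (43 cells), 0.812 on plate 2 (45) and 0.694 on plate 3 (61), and outside cluster 1 it was 0.562, 0.650 and 0.580. Both shares have the same total as their denominator and the cells of a plate share a library, so these values carry no p. In cluster 2 on plate 2 cells with more transcripts had lower shares, with a rho of -0.903 over 10 cells. The cells with the 3 highest shares of all, 43.2, 31.3 and 28.5%, belong to that group. In the 22 cluster 2 cells of plate 3 the same rho was -0.177.

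Autofluorescence, the light that unstained cells give off, was deposited for each kept cell as an intensity in arbitrary units, and the series title asks how it relates to the state of stem cells. High cells are those above the median of their plate, and low cells are the rest. In the high cells all 37 members gave 13.5% of transcripts on plate 1, 10.6% on plate 2 and 12.3% on plate 3, against 12.2, 14.3 and 11.96% in the low cells. High cells thus had the larger share on plates 1 and 3 and the smaller one on plate 2, and the classes overlapped. The mean difference was -0.706 ± 2.67 percentage points (SD, n = 3; exact two-sided sign-flip permutation p = 1; 3 plates cannot go below 0.25).

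The classes differed in the cells they held. Cluster 1, the cluster of lowest mitochondrial share, gave 22.4, 32.5 and 9.56% of the transcripts in the high class and 0.937, 4.39 and 0% in the low class. On plate 2, where cluster 1 took its largest part of the high cells, coding RNA was 8.45% in high and 11.5% in low cells, and rRNA 2.12 and 2.78%. Cells were also divided at the median of their own plate and cluster, leaving out cells that were alone in theirs. This evened the number of cells of each cluster, but the clusters still gave unequal parts of the summed transcripts. Cluster 2 gave 43.3% of the high and 22.5% of the low transcripts on plate 2, cluster 4 gave 24.6 and 42.5% on plate 1, and cluster 1 gave 8.70 ± 6.27 and 14.7 ± 7.02% (SD, n = 3). The part of this in the values that follow was not tested. High cells then had 14.4% on plate 1 and 11.7% on plate 2, low cells had 11.2 and 13.7%, and on plate 3 high minus low was -0.331 points. The mean difference was 0.311 ± 2.62 points (SD, n = 3, exact two-sided sign-flip permutation p = 1). High cells were above low cells on plate 1 and below them on plates 2 and 3.

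**Figure D3:**
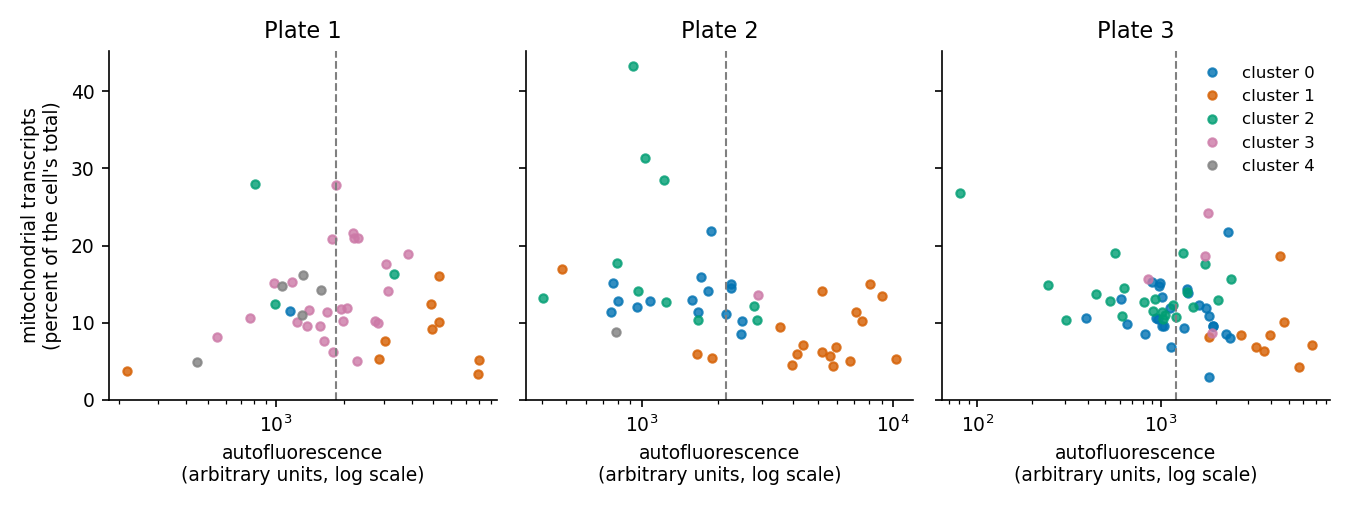
Mitochondrial share of each kept cell, in percent of its transcripts, against its autofluorescence in arbitrary units on a log scale, with 1 panel per plate, colours for clusters and a dashed line at the plate's median autofluorescence. Cluster 1 cells lie mostly at high autofluorescence and low share, and the cells above 28% on plate 2 are cluster 2 cells below the median.

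No mitochondrial gene passed the test between high and low cells. Sums of transcripts per plate and class were tested with edgeR's quasi-likelihood test, in a fit that blocks on plate, and p-values were adjusted by Benjamini-Hochberg over all genes tested, with a threshold of 0.05. Over all cells, 0 of the 14 members that passed the filter on low counts were called, against 150 of 3723 genes (4.03%). At an unadjusted p under 0.05 there were 0 members, against 413 of the 3723 genes. DESeq2 called 0 members, against 117 of 3723 genes. The other 23 members, mt-Nd6 and the tRNAs, had too few counts to be tested. The members' log2 changes had a median of -0.07, against -0.04 over all genes tested, and 6 of 14 were above 0.

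The changes of the largest size were those of mt-Atp8 and mt-Nd4l. Mt-Atp8 had 792, 1009 and 1113 CPM in high cells and 976, 1601 and 1343 CPM in low cells of plates 1 to 3, lower on every plate, with an edgeR log2 fold of -0.39 (SE 0.30) and an adjusted p of 0.729. Mt-Nd4l had 1273, 1187 and 1387 CPM in high cells against 824, 1364 and 1036 in low cells, lower on plate 2 alone, with an edgeR log2 fold of 0.30 (SE 0.31) and an adjusted p of 0.836.

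Within plate and cluster, 0 of 14 members were called by edgeR, against 3 of 3412 genes (0.0879%). At an unadjusted edgeR p under 0.05 there were 0 members, against 241 of the 3412 genes. DESeq2 called 0 genes, members included. The members' median log2 change was 0.06 against 0.01 over all genes, and 13 of 14 were above 0. Without plate 1 only 1 of 14 was, and the median was -0.11. Mt-Rnr1 had the largest change, 0.25 (SE 0.26, edgeR adjusted p = 0.918), from 3965, 4778 and 5000 CPM in low cells to 6335, 4353 and 5324 CPM in high cells, which was higher on plates 1 and 3 and lower on plate 2.

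In the oligodendrocyte-lineage-like clusters 0 and 2 alone, the share of all members was lower in high cells on both plates with enough cells, but not that of every member. On plate 2 it was 12.1% in 12 high cells against 15.2% in 13 low cells, and on plate 3 it was 11.8% against 12.5% in 24 cells each. The tRNA share was higher in high cells on 2 of 2 plates, with means of 0.0164 against 0.0118%. On plate 3, mt-Nd4l (1298 against 953 CPM), mt-Nd5 (2823 against 2679), mt-Nd4 (11894 against 11672) and mt-Rnr1 (5350 against 5319) were also higher in high cells. The mean difference was -1.90 ± 1.69 points (SD, n = 2; exact two-sided sign-flip permutation p = 0.5, the smallest that 2 plates allow). In the fit of both plates, 0 of 14 members were above 0 on the log2 scale and the median was -0.20, against -0.01 over all genes. EdgeR called 0 of 14, against 1 of 3138 genes (0.0319%), and DESeq2 called 0 genes, members included. At an unadjusted edgeR p under 0.05 there was 1 member of 14, against 196 of the 3138 genes. That member was mt-Co1, with 11569 against 17026 CPM on plate 2 and 13543 against 14537 CPM on plate 3 and an edgeR log2 fold of -0.34 (SE 0.17, adjusted p = 0.791). Plate 2 holds the 3 cells of highest share, all in cluster 2 and all below that plate's median autofluorescence, at 926, 1027 and 1227 units. Classes here are set by the median of plate and cluster, which was 1127 units for cluster 2 on plate 2. The cells at 926 and 1027 units were thus low cells in this comparison, and the cell at 1227 units was a high cell.

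In the microglia-like cluster 1 alone, the share was 7.15, 9.98 and 8.96% in high cells and 9.07, 8.38 and 7.61% in low cells of plates 1 to 3, lower on plate 1 and higher on the others. The mean difference was 0.340 ± 1.96 points (SD, n = 3, exact two-sided sign-flip permutation p = 1). EdgeR called 0 of 13 members, against 0 of 210 genes (0%), and DESeq2 called 0 genes as well. At an unadjusted edgeR p under 0.05 there were 0 members, against 2 of the 210 genes. The tRNA share was above 0 in high cells alone on 3 of 3 plates, but on 1, 4 and 2 transcripts.

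Over single cells, share and autofluorescence had a Spearman's rho of 0.008 on plate 1, -0.504 on plate 2 and -0.357 on plate 3. Outside cluster 1 these were 0.235, -0.228 and -0.150 (34, 27 and 52 cells). The values thus shrank on plates 2 and 3 once cluster 1 was set aside, and plate 1 had the opposite sign. Cells of a plate share a library, and no p is given. Outside cluster 1, brighter cells also held more transcripts, with a rho of 0.078, 0.356 and 0.506 on plates 1 to 3.

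**Figure D4:**
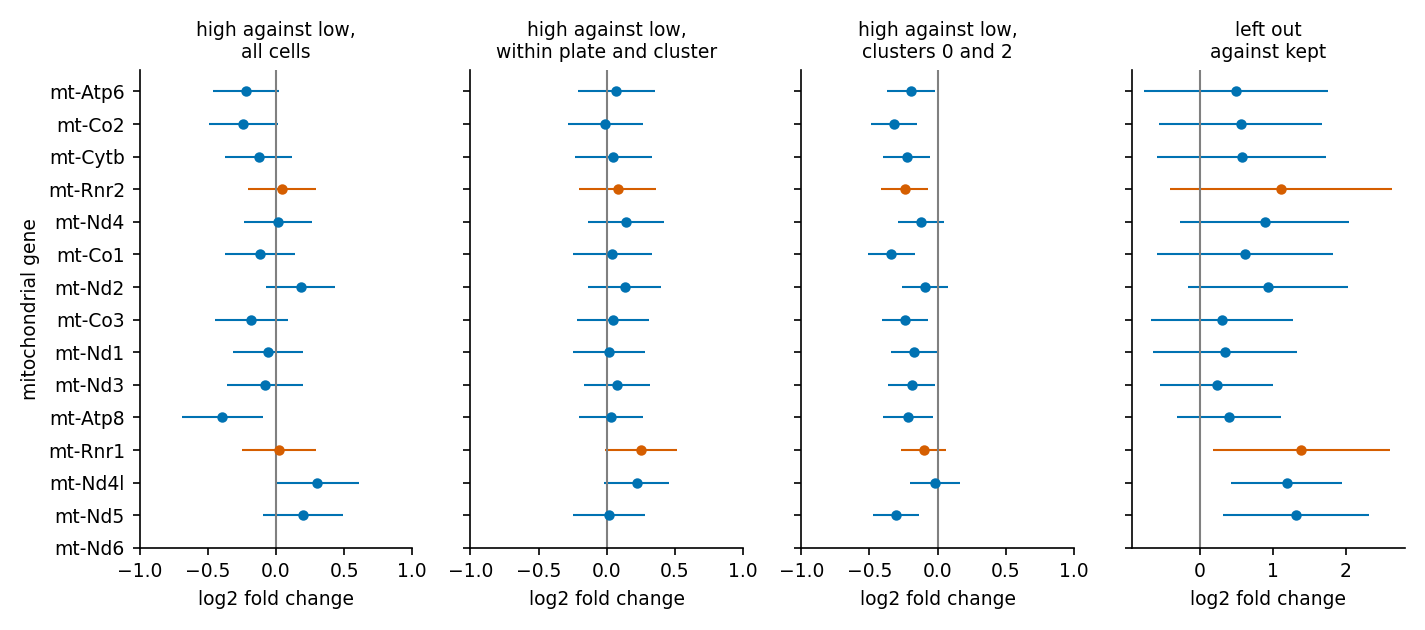
Log2 fold changes (points) with their standard errors (bars) of the coding members (blue) and rRNAs (orange), ordered by level per length, in 3 comparisons of high with low autofluorescence and in wells left out against kept cells, whose axis is wider. The mt-Nd6 line is empty because it was not tested, and 0 of the 14 members passed the test in any panel.

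The wells that the filtered table lacks held much less RNA, of which a larger part was mitochondrial, chiefly on plates 2 and 3. Their medians were 131, 286 and 313 transcripts per well on plates 1 to 3, and they had at most 421 genes, while every kept cell had at least 579. None of the sources used here gives the rule that left them out, which may have used these same measures, so the values compare both deposited sets and say nothing independent about cell quality. The mitochondrial share of the left-out wells was 15.9% of 3502 transcripts on plate 1, 36.7% of 12081 on plate 2 and 46.9% of 13119 on plate 3. Their exact 95% binomial intervals were 14.7 to 17.1%, 35.9 to 37.6% and 46.0 to 47.7%. Against the kept cells the difference was 20.7 ± 16.1 percentage points (SD, n = 3; above 0 on 3 of 3 plates; exact two-sided sign-flip permutation p = 0.25, the smallest possible).

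Plate 1 stood apart from the other plates in this. Its left-out wells ranged from 6.93 to 37.2%, and 15 of 20 lay above the median kept cell of the plate. On plates 2 and 3 all 34 and all 32 left-out wells lay above that median, and 10 and 18 of them lay above the highest kept cell. The left-out wells of plate 1 also had fewer transcripts, and other markers moved with them: the 8 nuclear-retained RNAs summed to 33269 CPM there, against 12748 in the kept cells of that plate, whereas on plates 2 and 3 they had 11014 and 8922 CPM against 12105 and 14164. The 12 dissociation response genes summed to 9710 CPM in left-out against 1934 CPM in kept wells on plate 1, 2566 against 2442 on plate 2 and 1448 against 1330 on plate 3. The 8 oligodendrocyte-lineage markers summed to 2570, 58777 and 32118 CPM in left-out wells of plates 1 to 3, against 13513, 74262 and 75099 in kept cells. The 10 markers of quiescent stem cells and astrocytes had 18564, 7119 and 11359 against 19782, 2155 and 4322 CPM, and the 8 microglial markers 7996, 3311 and 991 against 3942, 6677 and 1979 CPM. In left-out wells the microglial markers C1qa and Tmem119 were at 0 on plates 1 and 3. These sums rest on few transcripts. In the left-out wells of plate 1 they were 117, 34, 9, 65 and 28 transcripts, in the order given, and the microglial sum of plate 3 was 13. The part of all these in the difference between plates was not tested.

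The mitochondrial RNA of the left-out wells also had another makeup. Ribosomal RNA was 13.3% of it on plate 1, 29.4% on plate 2 and 32.1% on plate 3, against 18.0, 19.7 and 20.1% in the kept cells. As a share of all transcripts, rRNA was 2.11, 10.8 and 15.1% in left-out wells against 2.29, 2.47 and 2.44% in kept cells, a difference of 6.93 ± 6.52 points (SD, n = 3; above 0 on 2 of 3 plates; exact two-sided sign-flip permutation p = 0.5). Coding RNA was 13.8, 25.9 and 31.8% against 10.4, 10.1 and 9.68%. The tRNAs had 0, 9 and 6 transcripts in left-out wells, and 0 of 3502 on plate 1 allows a share of up to 0.0857%.

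Single wells weighed on plates 1 and 3. The well of most transcripts on plate 1 had 763 transcripts, 10.2% of them mitochondrial and 0.655% rRNA. Without it the rRNA share of that plate's left-out wells was 2.52%, above the 2.29% of the kept cells, and the mitochondrial share was 17.5%. With the largest left-out well of each plate set aside, the rRNA difference was 6.15 points and lay above 0 on 3 of 3 plates (exact two-sided sign-flip permutation p = 0.25). The well on plate 3 had 1612 transcripts of 88 genes, the most transcripts of any left-out well, and 94.8% of them were mitochondrial, 61.6% coding and 33.1% rRNA, with 458 transcripts of mt-Rnr2 alone. Without it the mitochondrial share of the left-out wells of plate 3 was 40.2% and the rRNA share 12.5%. Across left-out wells, the share went with total transcripts on plates 2 and 3, with a Spearman's rho of 0.486 and 0.419 (34 and 32 wells), and not on plate 1, with 0.030 (20 wells).

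**Figure D5:**
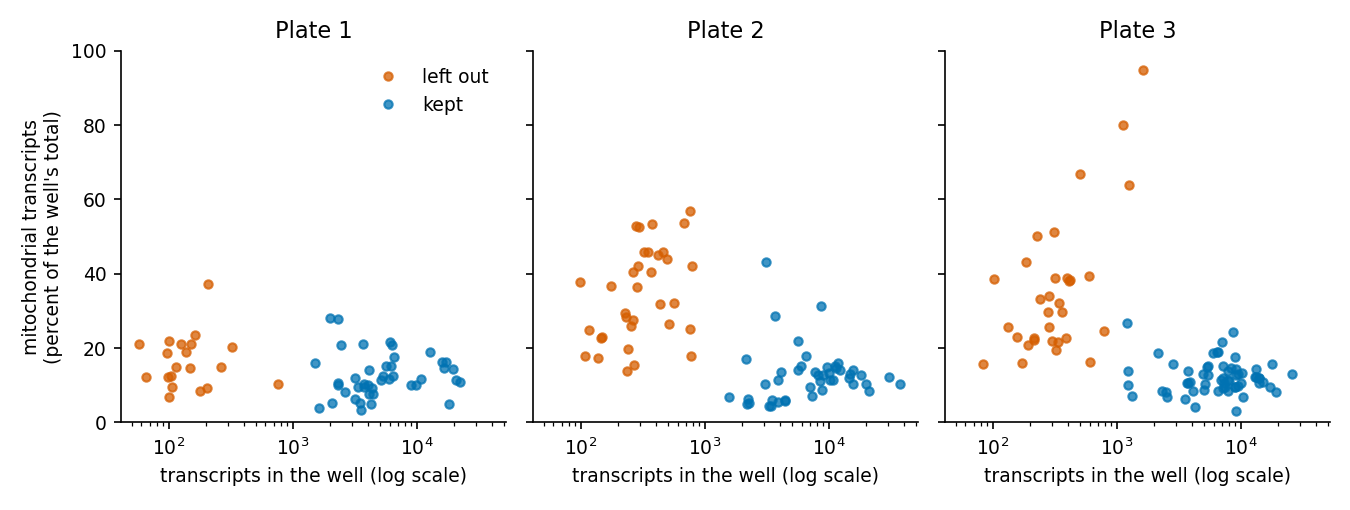
Mitochondrial share of each well, in percent of its transcripts, against the transcripts in the well on a log scale, with 1 panel per plate, for kept cells (blue) and wells left out (orange). On plates 2 and 3 every left-out well lies above the median kept cell, up to 94.8%, as do 15 of 20 on plate 1. The left-out and kept wells overlap in share on every plate.

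Per gene, the plates again differed. Of the 15 coding and rRNA members, 9 had a higher CPM in left-out than in kept wells on plate 1, with a median ratio of 1.15, whereas 15 of 15 did on plates 2 and 3, with median ratios of 2.59 and 3.41. No such count over all genes is given here, and the members share the same total, so these are not separate results. Mt-Rnr1 had 3712, 32204 and 29083 CPM in left-out wells against 5101, 4502 and 5198 CPM in kept cells. It was thus below the kept cells on plate 1 and 7.15 and 5.60 times as high on plates 2 and 3. Mt-Rnr2 had 17435, 75884 and 121587 CPM against 17768, 20153 and 19177.

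Mt-Nd5 had 9716, 13257 and 22217 CPM in left-out wells against 5112, 4051 and 3118 in kept cells, higher on every plate. Mt-Nd4l had 1999, 5218 and 4427 CPM against 1013, 1279 and 1219, also higher on every plate, though the value of plate 1 rests on 7 transcripts. The other members higher on every plate were mt-Co1, mt-Atp6, mt-Nd2, mt-Cytb, mt-Co2, mt-Nd4 and mt-Atp8. The smallest ratios on plates 2 and 3 were those of mt-Atp8, 1.88 on plate 2, and mt-Nd3, 1.93 on plate 3. Mt-Nd6 had 0, 3 and 4 transcripts in left-out wells.

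With the 3 plates in 1 fit, 0 of the 14 members tested were called between left-out and kept wells by edgeR. Of all genes, 1 of 2689 was called in either direction and 1 higher (0.0372%). At an unadjusted edgeR p under 0.05 there were 0 members, against 256 of the 2689 genes. DESeq2 called 0 members, against 1 of 2689 genes. The 1 gene called by edgeR was Tug1, a long noncoding RNA, at 3.21 on the log2 scale (edgeR adjusted p = 0.0205). Of the 8 nuclear-retained RNAs listed, which do not include it, 0 of 3 tested were called, with a median log2 change of -0.69. The members' median log2 change was 0.59, and 14 of 14 were above 0, against a median of -1.07 over all genes tested. RLE scaling moved the median of all genes to -0.91 and that of the members to 0.79. The largest changes were those of mt-Rnr1, 1.39 (SE 1.21, edgeR adjusted p = 0.71), and mt-Nd5, 1.32 (SE 1.00, edgeR adjusted p = 0.666).

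Without plate 1, 5 of 16 members were called higher by edgeR, against 32 of 3714 genes (0.862%), and none lower. They were mt-Rnr1, with a log2 change of 2.48 (SE 0.45, adjusted p = 1.9e-05), mt-Rnr2 with 2.11 (SE 0.62, 0.0295), mt-Nd5 with 2.10 (SE 0.40, 5.0e-05), mt-Nd4l with 1.76 (SE 0.34, 5.0e-05) and mt-Nd2 with 1.60 (SE 0.44, 0.0166). Both rRNAs and 3 of 7 complex I subunits were thus called. Of the complex I subunits not called, mt-Nd6 had 2.94 (adjusted p = 0.132), mt-Nd4 1.497 (0.0583), mt-Nd1 1.11 (0.0955) and mt-Nd3 0.84 (0.206). No subunit of complexes III, IV or V was called, with changes between 0.86 and 1.36, a range that holds mt-Nd1. That the members differ from each other in this was not tested. Without plate 2 or plate 3, edgeR called 0 members and 0 of 2856 or 2931 genes. At an unadjusted p under 0.05 there were 0 members, against 92 genes without plate 2 and 45 without plate 3.

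Nuclear genes that act on mitochondrial RNA did not pass the test either. Of 17 genes of mitochondrial transcription and genome copying in the table, 0 to 2 were tested in the 5 comparisons, of 31 genes of mitochondrial RNA processing and stability 0 to 8, and of 16 regulators of mitochondrial content 0 to 4. EdgeR called 0 of them in each comparison, and at most 1 gene of a list had an unadjusted p under 0.05. These lists summed to 234 to 447, 812 to 872 and 740 to 1272 CPM in the kept cells of the 3 plates, so most of their genes were too low to test. Of the dissociation response genes, 5 of 9 tested rose in high cells over all cells, against 145 of 3723 genes (3.89%). The high class there held 32 cluster 1 cells and the low class 4, and the part of this was not tested. Within plate and cluster 0 of 8 rose, against 0 of 3412 genes, and the list's median log2 change was -0.60, against 1.57 over all cells. The largest changes over all cells were those of Junb, an immediate early gene, with a log2 change of 2.49, and Egr1, with 2.14 (edgeR adjusted p = 0.00124 for each).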

How the data were processed

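Values in the deposited expression tables are estimated counts: the authors had turned molecular identifiers into numbers of transcripts. Inverting the correction for colliding identifiers gave whole numbers for 363716 of 363716 values above 0 (100%, tolerance 1e-06). The most identifiers of a member in a cell were 662 of 4096. Seurat 4.1.1, BWA 0.7.15 and R 4.2.0 appear in the submitters' processing notes, with no role given. The authors deposited 1 autofluorescence intensity for each kept cell. The authors' deposited percent of mitochondrial transcripts, their count of genes in each cell and their cluster numbers were taken unchanged. Of the columns given for each cell, 12 were not used. Cells were assigned to plates by the final digit of the library name.

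Transcripts were summed per plate and class, rounded, and tested with edgeR 4.0.16 in R 4.3.3 (TMM, its filter on low counts, quasi-likelihood test, plate block, Benjamini-Hochberg at 0.05), and with DESeq2 1.42.0 as an alternative. Both sides of a comparison needed at least 3 cells on a plate. The edgeR script was tested on simulated data. Shares were compared with an exact sign-flip permutation test over plates. The plates are separate libraries of separate experiments as far as the labels say. Since classes were compared within plates, p-values weigh a within-plate difference against its variation over the 3 plates. For clusters 0 and 2 alone there were 2 plates. Counting intervals are exact (Clopper-Pearson, 95%) and floors for a count of 0 use 3 counts. Nuclear copies were sought with BLAST against GENCODE M21 transcripts. Named genes are the coding and rRNA members, the leading tRNAs (ties included), and at most 5 genes per list that passed the test; mt-Tr and mt-Tl2 were picked after their values were seen. The members, lists and markers were chosen with earlier results of these data known. Sums used alternative scalings, filters, recovered identifiers, no plate block and left-out plates.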

Additional observations from a re-analysis of the deposited data

How the results depend on the processing

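Of 123 alternatives, 110 gave the same result by sign or by count. The 80 on shares kept their sign in 68, and only the sign could change, as their permutation p cannot go below 0.25. The other 43 are counts of called members. Outside the comparison over all cells, most settings called few genes, which left a count of 0 members little room to change. Counts of called members kept to 0 in 42 of 43 alternatives, among them RLE size factors, scaling without the 37 members, no filter on low counts, DESeq2, no plate block and recovered identifier counts. Leaving out 1 plate gave 0 called members for high against low over all cells, within plate and cluster and in cluster 1, and 0 to 5 for left-out wells against kept cells, the 5 without plate 1; the cause was not tested. Over all genes, the 150 called between high and low cells became 307 with no filter, 39 without plate 2 and 0 with no plate block. The 3 within plate and cluster became 20 with RLE, 23 without plate 1, 1 when scaled without the members, and 0 with DESeq2, with no plate block or without plate 3. The 1 in clusters 0 and 2 became 0 with no filter, DESeq2 or no plate block. The 1 in left-out wells became 113 without plate 1, 5 with RLE, 3 when scaled without the members, 2 without the largest left-out wells, and 0 with no filter, no plate block, or without plate 2 or 3. Clusters 0 and 2 have only 2 plates, so no plate could be left out. No paired analysis between groups was possible because the samples form 1 group.

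Differences in share between high and low cells changed sign under at least 1 alternative, except that of tRNA within plate and cluster, which stayed above 0 (2.73e-06 to 0.00628 points leaving out 1 plate). Leaving out 1 plate, the differences ranged over all cells from -1.71 to 0.807 points for all members, -1.42 to 0.440 for coding RNA, -0.289 to 0.365 for rRNA and -0.00300 to 0.00223 for tRNA. Within plate and cluster they ranged from -1.13 to 1.43 for all members, -0.932 to 1.11 for coding RNA and -0.202 to 0.312 for rRNA. As means of per-cell shares the difference turned to -0.313 points for rRNA and -0.00417 for tRNA over all cells, and to -0.258 for all members and -0.341 for coding RNA within plate and cluster. The cause was not tested.

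Left-out minus kept stayed above 0 for every class under every alternative run, from 13.7 to 29.5 points for all members when 1 plate was left out. An alternative chosen after seeing the data, without the left-out well of most transcripts on each plate, gave 18.9 points and 0 called members. Sums of left-out wells hold 3502 to 13119 transcripts, which limits them to abundant genes.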
